A study of Mus musculus with 4 samples.

Results

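Several miRNAs lie inside the introns of Htr2c, the gene of the serotonin 2C receptor, and miR-1298-5p is the abundant one among them in the main olfactory epithelium. The members described here are the rows of the authors' deposited table named miR-1298, miR-448, miR-764, miR-1264, miR-1911 or miR-1912, on any arm. This took 7 of 1167 rows: both arms of miR-1298, miR-1264 and miR-1912, and miR-448-3p. miR-764 and miR-1911 gave no row and were not analysed here. The set was selected on the genotype difference of mmu-miR-1298-5p (its 2 deposited means, and the authors' mark at an unadjusted p under 0.05), so genotype values are a description and support no test.

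The tissue is the sheet of olfactory sensory neurons, supporting cells and stem cells that lines the back of the nasal cavity. Small RNA libraries came from male C57BL/6 mice 3 months of age: 2 libraries of wild type and 2 of AC3-/-, mice that lack adenylyl cyclase 3, the enzyme that makes cAMP when an odour binds its receptor. The labels do not say which allele removes AC3, nor whether each library is a separate mouse; the spread between libraries may therefore be technical. The table gives a mean normalised read count per genotype, and the whole reads of each library were worked back from these means. The recovered libraries are called a and b within each genotype, letters that carry no replicate number.

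A miRNA is cut from a hairpin in a longer transcript, and either arm of the hairpin, 5p or 3p, can be loaded into the silencing complex. The loaded arm finds its target mRNAs mainly through its seed, bases 2 to 8. A miRNA in an intron is often made from the same transcript as its host gene. Htr2c is best known in the choroid plexus, the epithelium that secretes cerebrospinal fluid, and in neurons of the brain. The receptor couples serotonin to phospholipase C. Small RNA libraries do not measure the Htr2c mRNA itself.

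The mature sequences (RefSeq, GRCm38.p6) are shown because they tell whether members could share targets or reads. 5 of the 7 members matched an entry. Each is 22 bases long and printed 5′ to 3′ with the seed in capitals.
miR-1298-5p: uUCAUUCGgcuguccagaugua
miR-1298-3p: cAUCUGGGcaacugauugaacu
miR-1264-3p: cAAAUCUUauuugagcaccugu
miR-1912-3p: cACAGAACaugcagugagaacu
miR-448-3p: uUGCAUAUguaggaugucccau
The 5 seeds all differ. None is shared with another of the 947 rows whose mature sequence RefSeq gives, nor with any other of its 1679 mature names. The closest other mature mouse sequence lies 7 edits from miR-1912-3p and 8 edits from each of the other 4. These miRNAs are neighbours in the genome with unlike sequences, not a seed family, and RefSeq lists no near copy of them.

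The hairpin of miR-1298 (chrX:147064905-147065002, plus strand, GRCm38.p6) is printed with both mature arms in capitals, because nearly all reads of the set come from its first arm.
Mir1298: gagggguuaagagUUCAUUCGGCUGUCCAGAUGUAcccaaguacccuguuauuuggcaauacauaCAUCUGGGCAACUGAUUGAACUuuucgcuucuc
RNAfold gave this 98-base hairpin a minimum free energy of -46.3 kcal/mol with 39 base pairs. Of the 22 bases of the 5p arm, 20 were paired, 18 of them with the 3p arm, and 30 bases lie between the arms.

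Htr2c spans chromosome X from 146962513 to 147197277 on the plus strand (GRCm38, GENCODE M21), and all 6 hairpins lie on the same strand within its introns, overlapping 0 exons of its 7 annotated transcripts. In transcript Htr2c-201, with 6 exons, the second intron runs from 146981606 to 147072384. It holds Mir764 (147002259 to 147002366), Mir1912 (147009441 to 147009527), Mir1264 (147010601 to 147010686) and Mir1298. The fourth intron, from 147076048 to 147169569, holds the miR-1911 hairpin (147106965 to 147107047) and Mir448 (147158210 to 147158321). Mir1912 and Mir1264 are the closest pair, 1073 bases apart, while Mir1298 stands 54218 bases downstream of Mir1264 and 7382 bases before the third exon. Reads in the 4 libraries together were uneven: 1296 from miR-1298, 26 from miR-1264, 17 from miR-1912 and 11 from miR-448.

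**Figure D1:**
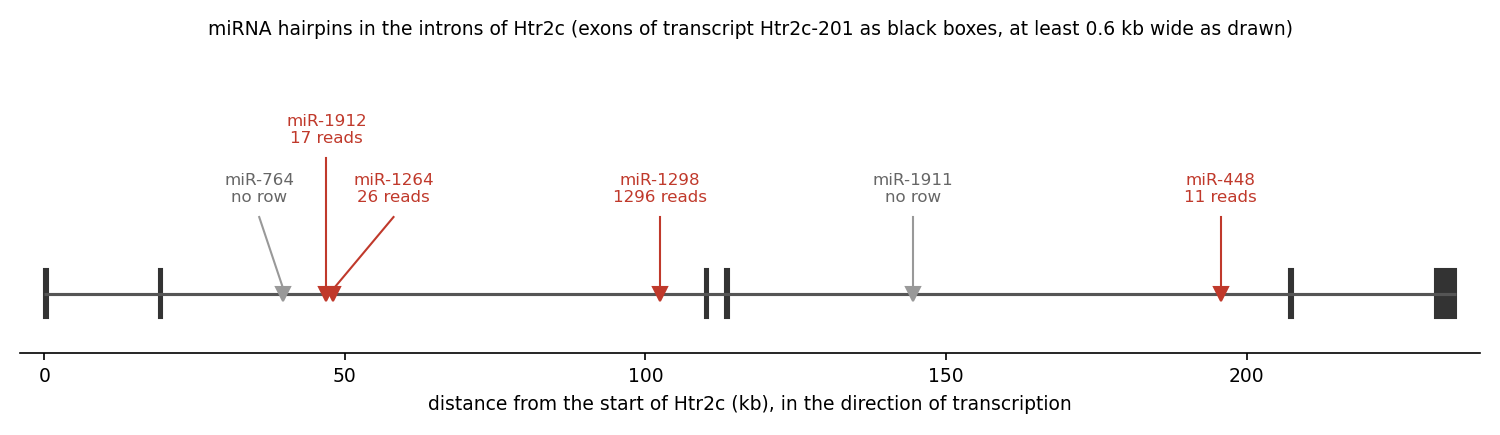
Map of Htr2c from its annotated start (0) in kb, with exons of transcript Htr2c-201 as black boxes (drawn at least 0.6 kb wide) and miRNA hairpins as triangles. Red hairpins have rows in the table and are labelled with their reads over both arms and all 4 libraries, 1296 for miR-1298 against 11 to 26 for the others, and grey hairpins have no row.

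miR-1298-5p was higher in both AC3-/- libraries than in both wild-type libraries. The AC3-/- pair held 446.0 (library a) and 381.4 (library b) normalised reads, from 512 and 419 reads. The wild-type pair held 240.1 (library a) and 146.2 (library b), from 226 and 125 reads. The groups did not overlap: the lower AC3-/- library lay 1.59-fold above the higher wild-type library, and the most distant libraries were 3.05-fold apart. Within a genotype, the libraries differed 1.17-fold in AC3-/- and 1.64-fold in wild type.

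Its deposited means of 413.7 for AC3-/- and 193.2 for wild type lie 2.14-fold apart. The authors' deposited table puts the log2 fold change, shrunken toward 0, at 0.92 (p = 0.0134, adjusted p = 0.940); this is among the values that chose the set. Pooling the reads of each genotype gave a ratio of 2.12 with a 95% interval of 1.87 to 2.40 (exact binomial), which covers counting error only. Reads copied by PCR without molecular identifiers are not independent molecules. In limma, fitted over 447 miRNAs, its log2 difference was 1.13 (standard error 0.39, Benjamini-Hochberg adjusted p = 0.933). The row was chosen on its genotype difference, so this p-value is a description and no test. limma called 0 of these 447 (0%), and 16 had an unadjusted p under 0.05 (3.58%). Past an adjusted p of 0.05, the authors' deposited table holds a single row of 1167 (0.0857%). In bulk tissue, more cells that make a miRNA and more of it per cell cannot be told apart.

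The wild-type libraries differ from each other more than the AC3-/- libraries do, and the size of this difference depends on which is used. The mean of AC3-/- was 1.72-fold above wild-type library a and 2.83-fold above library b. Across the 447 miRNAs the log2 ratio had an SD of 1.11 within wild type and 0.57 within AC3-/-, and wild-type library b stood farthest from the rest. The log2 difference of miR-1298-5p in limma was 0.78 without wild-type library b and 1.49 without library a. Each of these fits assumes that a lone wild-type library varies as the AC3-/- pair does. With 2 against 2, the smallest p an exact permutation test allows is 0.333.

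Among rows of like abundance, a 2-fold difference in this direction was uncommon. miR-1298-5p was picked for its difference, so its place among these rows is a description and no test. 90 other rows had a mean over both genotypes within 2-fold of that of miR-1298-5p (152 to 607 normalised reads). Their log2 ratios of AC3-/- over wild type, with 1 added to each mean, had a median of -0.07 and middle quartiles from -0.34 to 0.20. miR-1298-5p stood at 1.09 on this scale. 2 of the 90 were 2-fold or more higher in AC3-/-, miR-7b-5p at 2.63 and miR-31-3p at 1.09, and 7 lay at least as far from 0 as miR-1298-5p in either direction. For miR-7b-5p the AC3-/- libraries, at 1099 and 205.7 normalised reads, were farther apart than those of miR-1298-5p, and the wild-type libraries stood at 102.0 and 106.4. miR-31-3p had 461.7 and 1027 against 290.1 and 408.1. Of all 492 rows with a mean of at least 10, 14 were 2-fold or more higher in AC3-/- (2.85%). A lack of overlap with AC3-/- higher was more common: 16 of these 90 rows had it, and 75 of the 447 miRNAs with a mean of at least 10 (16.8%). With AC3-/- lower, 15 of the 90 rows did not overlap.

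By mean, miR-1298-5p ranked 201 of 1167 rows in AC3-/- and 251 in wild type. As a share of the summed means of a genotype it made 0.00473% in AC3-/- and 0.00157% in wild type, 3.02-fold apart. This ratio is larger than 2.14 because the summed means were 8739148 in AC3-/- and 12320877 in wild type. That scaling moves every row up by 0.50 on the log2 scale relative to the authors' size factors, before 1 is added.

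**Figure D2:**
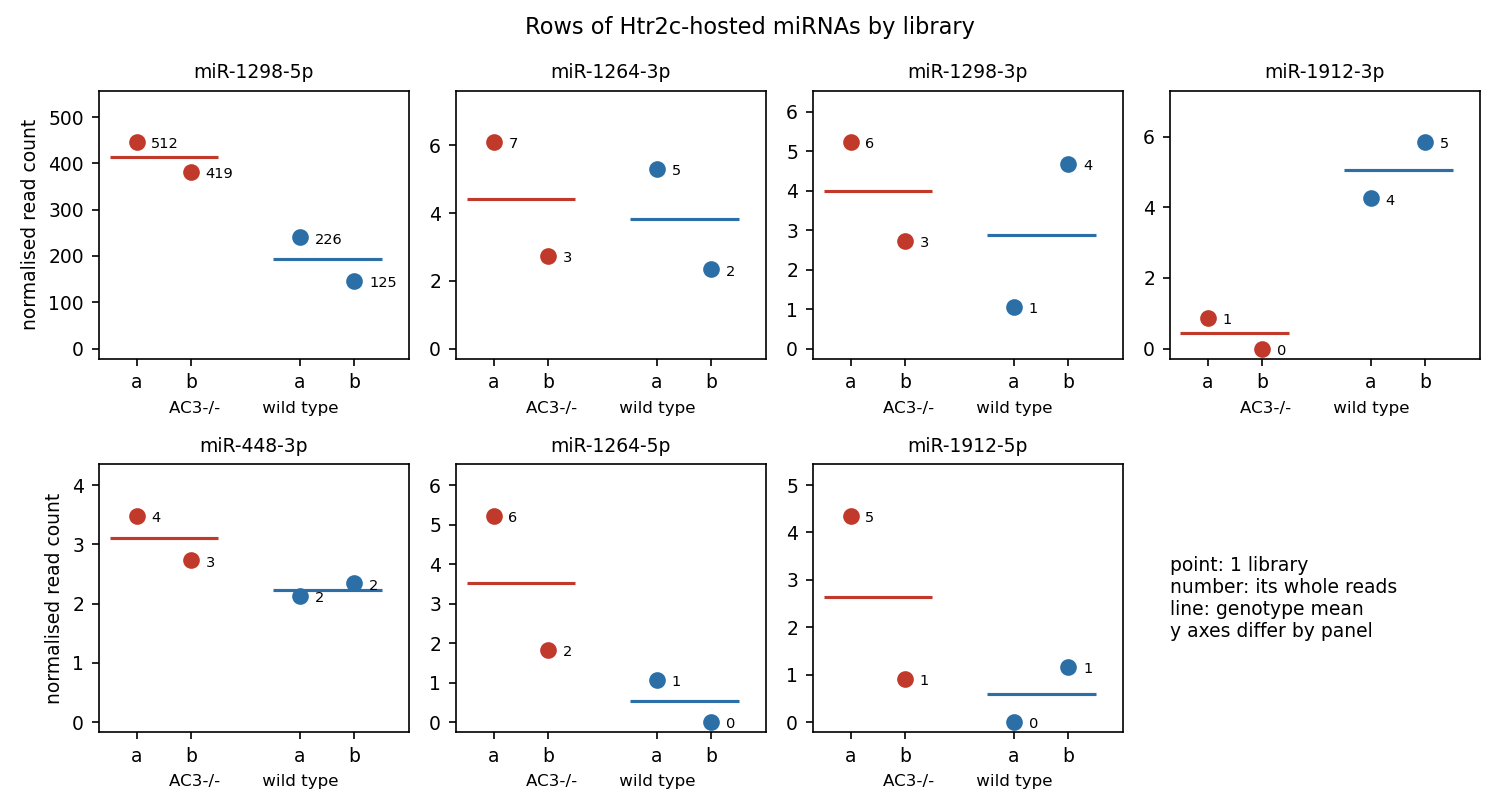
Normalised read count of each member (y axes differ by panel and include 0) in AC3-/- libraries a and b (red) and wild-type libraries a and b (blue), with whole reads beside each point and the genotype mean as a line. miR-1298-5p rests on 125 to 512 reads a library, and the other 6 rows on 0 to 7.

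The opposite arm, miR-1298-3p, is the strand of the same hairpin that is usually discarded. It had 6 and 3 reads in AC3-/- and 1 and 4 reads in wild type. Its normalised values of 5.23 and 2.73 against 1.06 and 4.68 overlapped between genotypes. The pooled ratio was 1.44 with a 95% interval of 0.43 to 5.47, which includes both no difference and the 2.12 of the 5p arm, so a difference was not detectable at this depth. The 5p arm made 98.8% and 99.3% of the miR-1298 reads in AC3-/- and 99.6% and 96.9% in wild type. The exact (Clopper-Pearson) 95% intervals of these shares, 97.5% to 99.6%, 97.9% to 99.9%, 97.6% to 100.0% and 92.3% to 99.1%, overlap. Ligation favours some sequences, so the share is one of reads, not of molecules.

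The remaining 5 members were scarce, with 7 to 17 reads each over the 4 libraries; 4 lay above 0 and miR-1912-3p below. miR-1264-3p, from the hairpin next to Mir1912, stood at 6.10 and 2.73 normalised reads for AC3-/- beside 5.31 and 2.34 for wild type. These values overlapped, and the pooled ratio was 1.14 with a 95% interval of 0.39 to 3.54. miR-448-3p had 3.48 and 2.73 against 2.13 and 2.34, without overlap, but from only 4, 3, 2 and 2 reads. Its pooled ratio was 1.40 with an interval of 0.36 to 6.52.

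miR-1912-3p lay the other way, lower in both AC3-/- libraries. It had 1 and 0 reads in AC3-/- and 4 and 5 in wild type, or 0.871 and 0 normalised reads against 4.25 and 5.85. The pooled ratio was 0.089 with a 95% counting interval of 0.0020 to 0.64. For the AC3-/- library with no read, a count of 0 allows up to 3 reads, or 2.73 normalised reads. The authors' deposited table lists it at a log2 fold change of -0.90 (p = 0.0543, adjusted p = 0.940).

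The 5p arms of both hairpins leaned toward AC3-/-, again from single reads. miR-1264-5p had 6 and 2 reads in AC3-/- and 1 and 0 in wild type, a pooled ratio of 6.40 with a counting interval of 0.86 to 284. miR-1912-5p had 5 and 1 reads against 0 and 1, a pooled ratio of 4.80 with an interval of 0.58 to 221. The arms of the miR-1912 hairpin thus lay in opposite directions, a difference between arms that was not tested. The intervals of the 5p arms, miR-1264-5p and miR-1912-5p, include no difference. Most of the reads of these arms sat in AC3-/- library a, which also held 29 of the 68 reads of the 6 scarce members, against 12, 13 and 14 in AC3-/- library b and the wild-type libraries a and b.

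The shares of scarce members that separated were near those of other rows of their level. Their genotype means were 2-fold or more apart in 3 of 6, where 49.4% of rows with a mean from 1 to under 10 were. The genotypes did not overlap in 3 of 6, where 40% of those rows did not. Counts over all 7 members include miR-1298-5p, a row picked for its difference. Over all 7 members 4 did not overlap, 3 higher and 1 lower in AC3-/-, against 28.3% of all 1122 rows with library values. Without wild-type library b the count was 6 of 7, against 59.4%. By the authors' deposited table, 0 of the 6 scarce members have p under 0.05 unadjusted, where 3.51% of all rows do. Their adjusted p-values are 0.940 to 0.979. miR-1298-5p has an unadjusted p under 0.05 because that mark chose the set. The median log2 ratio over the 7 members was 0.36, with 6 above 0, beside -0.01 over all rows, of which 576 were above 0 and 591 below. Together the 6 scarce rows, miR-1912-3p included, had 41 reads in AC3-/- and 27 in wild type. The pooled ratio was 1.21 with a counting interval of 0.73 to 2.05. Their normalised reads summed to 25.3 and 10.9 in AC3-/- against 13.8 and 16.4 in wild type, which overlap.

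**Figure D3:**
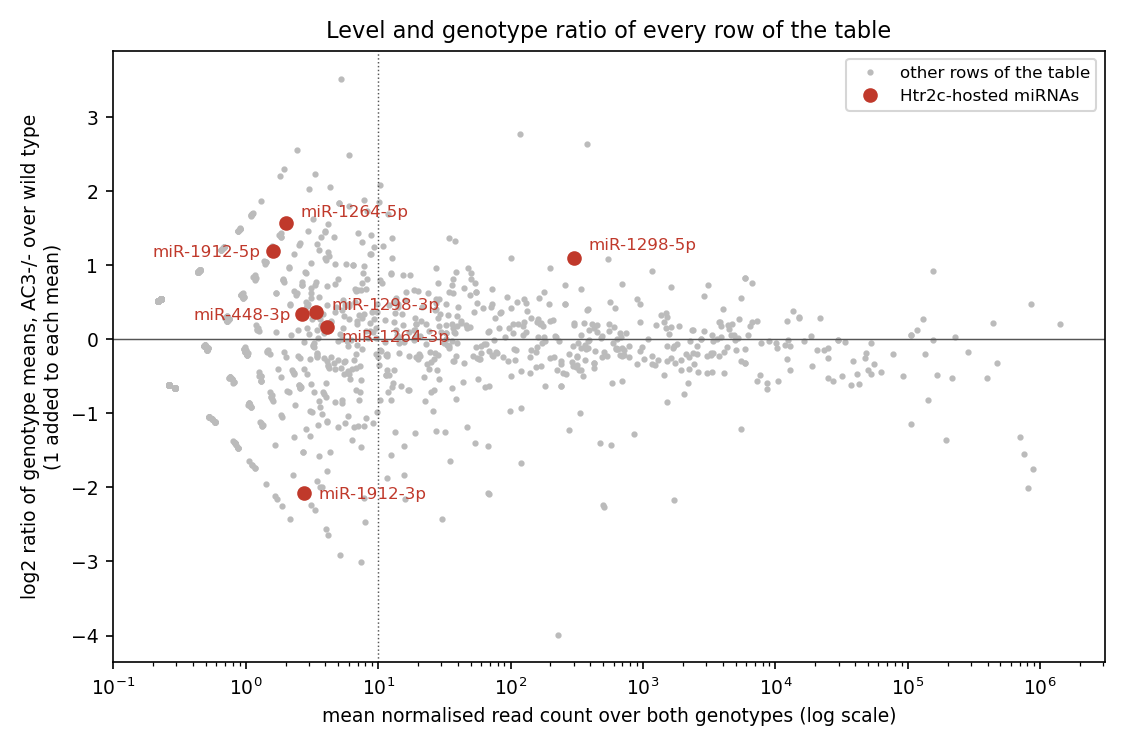
Each point is 1 row of the table, with its mean normalised read count over both genotypes (x, log scale) and the log2 ratio of the genotype means, AC3-/- over wild type, with 1 added to each (y). The 6 scarce members (red) lie among the widely scattered rows left of the dotted line at a mean of 10, and miR-1298-5p lies at 1.09 among rows that mostly sit near 0.

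The rows with the profile most like that of miR-1298-5p over the 4 libraries were miR-344-3p, miR-33-3p, miR-130b-3p, miR-669c-5p and miR-376b-5p. Likeness was the root mean square distance between log2 values centred on the mean of the 4 libraries, with 1 added, over 446 other miRNAs with a mean of at least 10. The median distance was 0.71, and those of the 5 rows ran from 0.089 to 0.22. miR-344-3p, a miRNA known from brain, was nearest. It had 149.8 and 126.5 normalised reads in the AC3-/- pair and 85.0 and 43.3 in the wild-type pair, a ratio of means of 2.15 beside 2.14 for miR-1298-5p. In miR-344-3p and in miR-1298-5p, AC3-/- library a was highest and wild-type library b lowest. The next, miR-33-3p, had 36.6 and 35.5 against 25.5 and 16.4. miR-130b-3p had 60.1 and 67.4 against 36.1 and 28.1, miR-669c-5p 99.3 and 80.1 against 70.1 and 40.9, and miR-376b-5p 47.9 and 47.3 against 29.8 and 23.4. All 5 are lowest in wild-type library b, and all 5 were picked for likeness, so their direction is no separate result. With 4 libraries many rows can share an order.

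**Figure D4:**
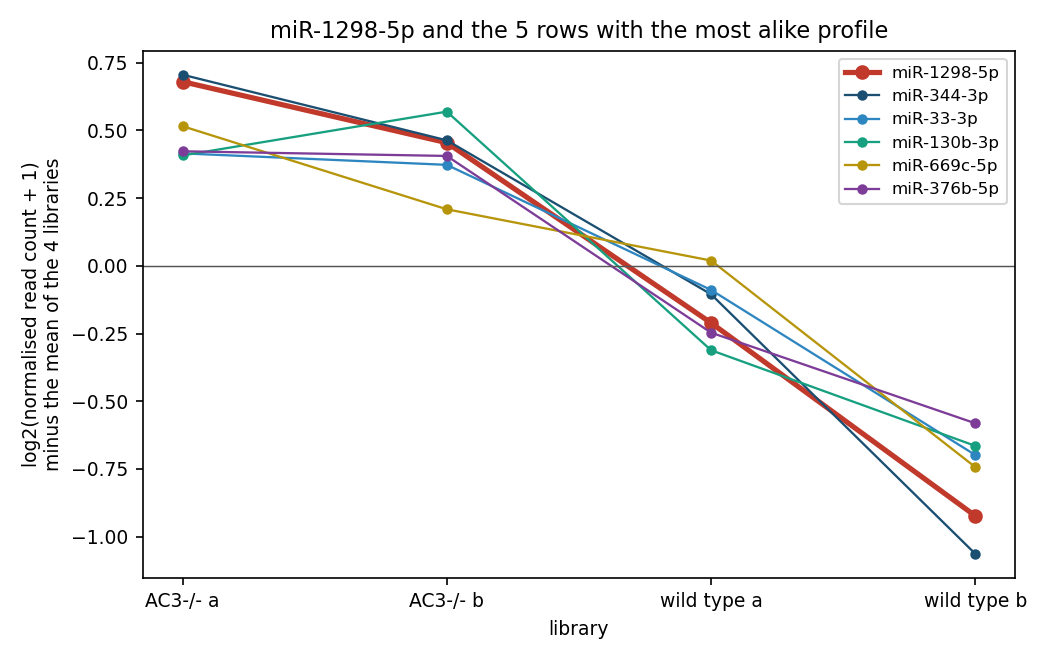
log2(normalised read count + 1) minus the mean of the 4 libraries (y) in each library (x) for miR-1298-5p (thick red) and the 5 most alike rows; lines only join the points of a row. miR-344-3p follows miR-1298-5p most closely, and all 6 rows are lowest in wild-type library b.

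Other miRNAs of chromosome X were seldom higher in both AC3-/- libraries than in both wild-type libraries. RefSeq places 94 rows on chromosome X outside Htr2c, of which 38 lay above 0 and 56 below. Their median log2 ratio was -0.14, beside -0.01 over all rows, and as shares of the summed means it was 0.17, beside 0.14 over all rows. 1 of the 94 had an unadjusted p under 0.05, lower in AC3-/-. Of the 93 with library values, 4 did not overlap with AC3-/- higher (4.30%, against 14.8% of all rows) and 15 with AC3-/- lower (16.1%, against 13.5%). The 3 most abundant each have a further gene on another chromosome. The AC3-/- and wild-type means of let-7f-5p were 324103 and 466344, those of miR-92a-3p 6339 and 6076, and those of miR-19b-3p 5571 and 6129.

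miRNAs known from the cell types in which Htr2c is expressed were compared next, as lists. Of 16 neuron-enriched miRNAs, 9 lay above 0 and 7 below, with a median log2 ratio of 0.05, or 12 above 0 as shares of the summed means. 5 of the 15 with library values did not overlap with AC3-/- higher (33.3%, against 14.8% of all rows) and 0 with AC3-/- lower (against 13.5%). In the authors' deposited table, 3 of the 16 have an unadjusted p under 0.05, where 3.51% of all rows do. These are miR-124-3p and miR-344-3p, higher in AC3-/-, and miR-129-5p, lower. For miR-129-5p, 222.1 and 126.5 normalised reads for AC3-/- overlapped 138.1 and 1538 for wild type, and wild-type library b alone stood high. miR-218-5p, typical of motor and other neurons, stood at 15933 and 17164 normalised reads for AC3-/- beside 13905 and 13273 for wild type. miR-128-3p had 4378 and 5037 against 3961 and 4310, and miR-9-5p, which neural progenitors also make, had means of 107472 and 103336. miR-124-3p, the miRNA most typical of neurons, had 228.2 and 183.0 against 21.3 and 37.4. It is the 1 row of the authors' deposited table past an adjusted p of 0.05, while limma called 0 of 447 miRNAs, miR-124-3p among them. The summed level of the brain neuron markers miR-124-3p, miR-128-3p, miR-137-3p and miR-218-5p was 20562 and 22404 in AC3-/- against 17904 and 17644 in wild type, with 4 of 4 above 0. These 4 markers are also on the list of 16, and the 7 of that list below 0 all lie outside them. Most of each sum is miR-218-5p, 1.22-fold apart between the means, and miR-137-3p overlapped at 21.78 and 20.03 against 17.00 and 23.39. The sums do not overlap, and their part in the difference of miR-1298-5p was not tested.

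The choroid plexus markers did not follow the genotypes. miR-204-5p, abundant in choroid plexus and in pigment epithelium, stood at 1469 and 1601 normalised reads for AC3-/- beside 923.4 and 4197 for wild type, so the wild-type libraries enclosed the AC3-/- ones. miR-211-5p, its seed relative, had 7.84 and 12.7 against 8.50 and 8.19. Of 9 miRNAs listed as abundant in choroid plexus, most of which multiciliated cells make too, 7 lay above 0 with a median of 0.06. In the 8 with library values the genotypes overlapped. miR-34c-5p had means of 230226 and 225941, miR-34b-3p had 4814 and 11070 normalised reads against 10220 and 3121, and miR-34c-3p 3580 and 7000 against 8740 and 1676.

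The libraries carry the markers of the labelled tissue. The 7 miRNAs of the miR-200 and miR-183 families fixed as markers of olfactory sensory epithelium made 19.5% of the summed means in AC3-/- and 42.5% in wild type, and all 7 lay below 0. Only miR-141-3p of these has library values, 18849 and 22274 against 17615 and 41585. They overlap, with wild-type library b alone above the AC3-/- pair. By the authors' deposited table, 4 of the 7 have an unadjusted p under 0.05, all lower in AC3-/-, where 3.51% of all rows do. Leukocyte markers summed to 9509 and 12190 normalised reads for AC3-/- beside 10034 and 2931 for wild type, with 4 of 4 above 0 in the means. Red cell markers summed to 6068 and 4644 against 5519 and 3081. Striated muscle markers summed to 6537 and 4389 against 6603 and 7011, with miR-206-3p at 0 in AC3-/- library b. Glial markers summed to 443 and 340 against 231 and 752. Multiciliated cell markers had genotype sums of 236790 and 232148, mostly miR-34c-5p, which has no library values. The other 2, miR-449a-5p and miR-34b-5p, summed to 5296 and 7832 against 11270 and 1144, so the wild-type libraries enclosed the AC3-/- ones. In the leukocyte, red cell, glial and multiciliated sums, as in miR-1298-5p, the wild-type libraries lay farther apart than the AC3-/- libraries. The part of any of these cell types in the level of miR-1298-5p was not tested.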

How the data were processed

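Small RNA was sequenced from 4 libraries (2 wild type, 2 AC3-/-), grouped by sample title. Bowtie, DESeq 1.8.3 and GRCm38 appear in the submitters' processing notes without a stated role; the counter, miRBase release and filters are likewise not given in the sources. Per the file headers and the values, the authors deposited 1 table of 1167 rows with the mean normalised read count of each genotype, a signal and not raw counts. It also holds the authors' p-value, adjusted p-value and log2 fold change.

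Each mean sums whole reads of 2 libraries, each read at that library's step. Solving for the reads gave 1 solution in 1123 rows (96.2%) for AC3-/- and 1130 (96.8%) for wild type, every member included; rows with several, all above a mean of 21993, were left without library values. On simulated data, 1116 of 1116 and 1128 of 1128 rows with 1 solution were right. The size factors of libraries a and b were 1.15 and 1.10 (AC3-/-) and 0.941 and 0.855 (wild type). Over all rows, the AC3-/- pair sums to between 19201686 and 20063529 reads, and the wild-type pair to between 21071945 and 23190561. Some abundant rows hold equal values under 2 names. Sums, shares and counts over rows can therefore include the same reads more than once, and these sums are not library totals.

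limma 3.58.1 (R 4.3.3; intensity trend on) was fitted to log2(normalised value + 1) over the 447 miRNAs that had library values and averaged at least 10. On simulated data (5 runs of this comparison), with 444 to 454 miRNAs tested, it called 318 of 411 changed 4-fold and 10 unchanged. The simulated libraries all had the same spread, unlike the real ones (log2 SD 1.11 within wild type, 0.57 within AC3-/-). The simulation therefore does not give the rate of calls for 2-fold differences in these libraries. Alternatives were other pseudocounts (0.5 and 5), no filter, no trend, shares of the summed means, and each library left out. Hairpins were folded with RNAfold 2.7.2. Of 1123 rows with mouse names, 1076 could be placed on a chromosome.

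Named miRNAs were all members, the 5 most alike profiles and the 3 most abundant of each list; miR-7b-5p, miR-31-3p, miR-124-3p, miR-129-5p, miR-137-3p, miR-141-3p, miR-206-3p and miR-211-5p, chosen after their values were seen, are given beside results that turn on them. Members and lists were chosen with earlier results of these data known.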

Additional observations from a re-analysis of the deposited data

How the results depend on the processing

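The log2 difference of miR-1298-5p stayed above 0 in every alternative run. It was 1.14 and 1.12 with pseudocounts of 0.5 and 5, 1.13 with no filter and without an intensity trend, and 0.92 as the authors' shrunken value, with adjusted p-values of 0.773 to 0.940. As shares of the summed means it was 1.54, a shift that follows from the different sums. Leaving out each library in turn gave 0.78 to 1.49, from fits with 1 library in a genotype. The row was chosen on its genotype difference, so the adjusted p-values above are no test of it. The number of miRNAs that limma called ran from 0 to 63 when a library was left out: 63 without wild-type library a, 1 without library b, and 0 without either AC3-/- library. It was 0 in the other alternatives.

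The count of 4 members without overlap became 1 with members of a mean of at least 10 only, an alternative chosen after seeing the data, since 6 of the 7 are scarcer. For the scarce members 36 alternatives, also chosen then, moved the log2 ratio by less than 1 SD between libraries in 30. The sign changed in 4: for miR-1264-3p to -0.37 without AC3-/- library a and -0.22 without wild-type library b, and for miR-1298-3p to -0.05 and -0.19 without AC3-/- or wild-type library a. The list medians moved by less than the spread between libraries, though as shares of the summed means that of chromosome X was 0.17, above 0. No paired analysis was possible because the recovered libraries carry no replicate number. Depth limits the 6 scarce members, with 7 to 17 reads each.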
